A study of Mus musculus with 8 samples.

Results

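GABA interneuron progenitors of the mouse paraflocculus and flocculus (PF/F), lateral lobules of the cerebellum, were examined in single-nucleus RNA-seq data. The nuclei were those that the authors' annotation calls GABA.interneuron.progenitor, matched by library and barcode to the raw UMI (unique molecular identifier, one counted RNA molecule) matrices. They numbered 2049 of 48237 annotated nuclei, and the remaining nuclei fell into 15 other annotated types. The nuclei came from 4 libraries, 2 from wild-type (WT) mice and 2 from Tbx1+/- littermates, each a pool of PF/F from 5 mice at postnatal day 5.5 on a C57BL/6J background. The study used mice of both sexes, and the labels do not give the sexes within each pool. Tbx1+/- mice carry 1 inactivated germline copy of Tbx1, a T-box transcription factor gene within the region deleted in 22q11.2 deletion syndrome, in every cell of the body. Because each library pools animals, n counts pools, and p-values set a genotype difference against the variation between pools, with 2 per genotype.

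GABAergic neurons of the cerebellum arise from ventricular zone cells that express Ptf1a, a bHLH (basic helix-loop-helix) transcription factor that commits cells to an inhibitory fate. Interneuron precursors then leave the ventricular zone, switch on the paired-box factor Pax2, keep dividing while they cross the prospective white matter, and mature into basket, stellate, Golgi and other interneurons after birth. Pax3 is a related paired-box factor of progenitor cells. Progenitors are known to depend on Notch signalling, by which a Dll1-bearing cell keeps its neighbour undifferentiated, and are exposed to Sonic hedgehog from Purkinje cells.

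The progenitors made up 4.78% of annotated nuclei in WT 1 (586 of 12255, 95% Wilson interval 4.42 to 5.17) and 4.03% in WT 2 (369 of 9153, 3.65 to 4.45). In Tbx1+/- 1 and Tbx1+/- 2 they made up 4.29% (594 of 13835, 3.97 to 4.64) and 3.85% (500 of 12994, 3.53 to 4.19). The intervals cover counting error only. The nuclei held 1876628 and 1263900 UMIs in the WT libraries and 1701069 and 1732111 in the Tbx1+/- libraries, with median UMIs per nucleus from 2420 to 3121. No barcode of a progenitor was shared between libraries. The median mitochondrial share was 1.06% and 0.899% in the libraries numbered 1 and 0.442% and 0.648% in those numbered 2, and the median share of UMIs kept after the authors' ambient RNA correction was 0.766 and 0.774 against 0.823 and 0.820. Levels below are CPM, the UMIs of a gene per 1000000 UMIs summed over the progenitors of a library. Intronic UMIs were counted, so a long gene gathers more of them and levels of different genes are not compared.

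Both genes given as markers of the type were present, in different patterns. Pax3 (chr1:78101267-78197134, minus strand, mm10) was at 1103 and 1485 CPM in the WT progenitors and 1157 and 1480 CPM in the Tbx1+/- progenitors. The genotypes overlapped, and both libraries numbered 2 were above both numbered 1. The mean of 1306 ± 205 CPM (SD, n = 4 libraries) was followed by 726 ± 104 in astroglia, 562 ± 66.2 in the early rhombic lip type and 204 ± 17.0 in granule neuron progenitors (GNP). Every progenitor library was above every other type, while astroglia and the early rhombic lip type overlapped within their spread. Differentiated GABA interneurons held 81.9 ± 11.4 CPM. Pax2 (chr19:44756045-44837871, plus strand) was at 154 and 222 CPM in WT and 161 and 179 CPM in Tbx1+/- progenitors. Here the progenitors (179 ± 30.3) came second to differentiated GABA interneurons (571 ± 71.6), and the next types, immune (31.5 ± 15.8) and meningeal cells (31.3 ± 4.77), did not differ beyond their spread. Pax3 was thus shared with astroglia and Pax2 with differentiated interneurons.

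**Figure D1:**
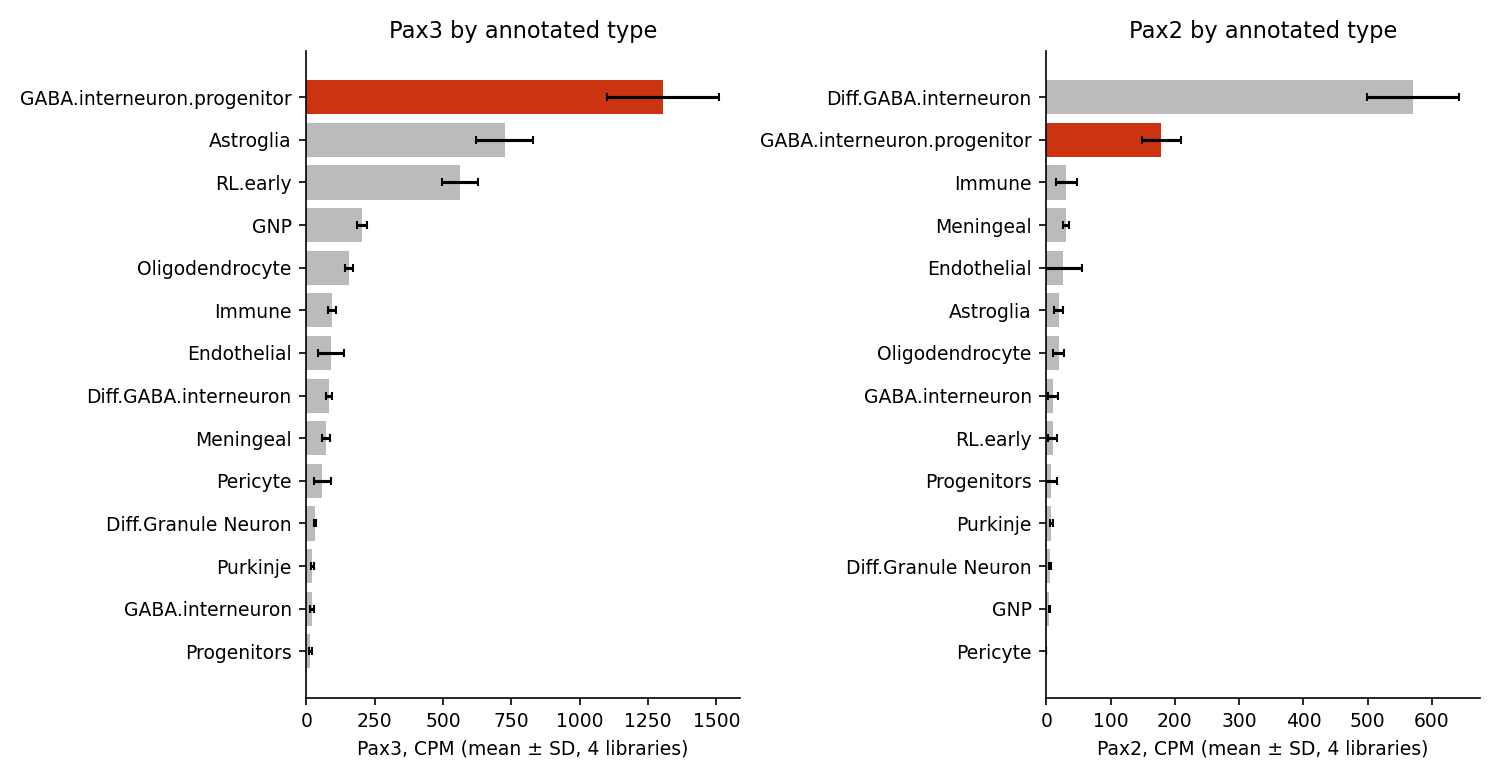
Pax3 (left) and Pax2 (right) in annotated PF/F types, ordered by level, as CPM of summed nuclei on a linear axis from 0; bars are means of 4 libraries and lines are SD. The progenitors (red) lead for Pax3 at 1306 CPM and stand second for Pax2 at 179 CPM, behind differentiated GABA interneurons at 571 CPM.

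Counted nucleus by nucleus, after each nucleus was thinned at random to 1500 UMIs, Pax3 was seen in 73.8% to 82.6% of progenitors. Pax3 was seen in 62.4% ± 4.33 of astroglia and in 10.0% ± 1.45 of differentiated GABA interneurons (SD, n = 4). Pax2 was seen in 14.0% to 19.7% of progenitors, against 53.3% ± 4.36 of differentiated GABA interneurons, 0.522% ± 0.221 of GNP and 0.874% ± 0.246 of Purkinje cells, which should lack it. Nuclei with UMIs of both genes made up 9.12% and 12.6% in WT and 7.36% and 11.3% in Tbx1+/-. Nuclei with Pax2 differed from those without it in other genes. Gad1, which makes GABA from glutamate, was at 173, 176, 220 and 193 CPM of thinned UMIs in Pax2-detected nuclei of WT 1, WT 2, Tbx1+/- 1 and Tbx1+/- 2, against 34.9, 20.5, 21.2 and 22.7 CPM in the others. The levels of the 2 sets of nuclei did not overlap.

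The clusters behind the annotation were built from these same genes, so levels in the progenitors against other types are given as a description, without a test. Among 7265 genes with at least 20 CPM in the progenitors of every library, 5.15% (374) had their highest mean in the progenitors and 0.661% (48) exceeded every other type by over 2-fold. The 15 genes with the highest ratio to any other type were led by Ptx3, which encodes a secreted pentraxin of innate immunity. Ptx3 was at 154 and 138 CPM in WT and 178 and 152 CPM in Tbx1+/- progenitors. Its mean was 33.2 times the 4.68 ± 2.87 CPM of the next type, meningeal cells. Prdm13, a zinc-finger factor that represses glutamatergic fate, followed at 82.6, 115, 78.8 and 101.6 CPM in the same order of libraries. Its mean was 22.2 times the 4.25 ± 2.86 CPM of meningeal cells. With so low a level in the next type, both ratios are loose. Angpt1, the angiopoietin ligand of the endothelial receptor Tek, was at 2600, 3681, 2690 and 3634 CPM against 357 ± 34.0 in astroglia (8.83 times), with both libraries numbered 2 above both numbered 1. Veph1, a melted homologue, was at 124 ± 24.4 CPM (11.0 times) and Tfap2c, an AP-2 factor, at 45.7 ± 7.03 CPM (5.45 times). Gadd45g, a growth-arrest and DNA-damage gene, was at 144 ± 15.4 CPM (4.28 times). Gm29684, Gm29260 and Gm49439, for which no role is known here, were at 36.3, 37.2 and 45.2 CPM.

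Some of these genes lie together in the genome. Ptx3 (chr3:66219910-66225805, plus strand) lies wholly within Veph1 (chr3:66053558-66296837, minus strand), on the opposite strand. Kirrel2 (chr7:30447534-30457690, minus strand) and Nphs1 (chr7:30458315-30487223, plus strand), which encode the slit diaphragm adhesion proteins Neph3 and nephrin, are transcribed away from each other with 624 bases between them. Kirrel2 was at 226, 245, 246 and 239 CPM and Nphs1 at 357, 299, 386 and 309 CPM in WT 1, WT 2, Tbx1+/- 1 and Tbx1+/- 2. Astroglia came next for both, at 33.3 ± 3.33 and 52.5 ± 7.14 CPM.

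**Figure D2:**
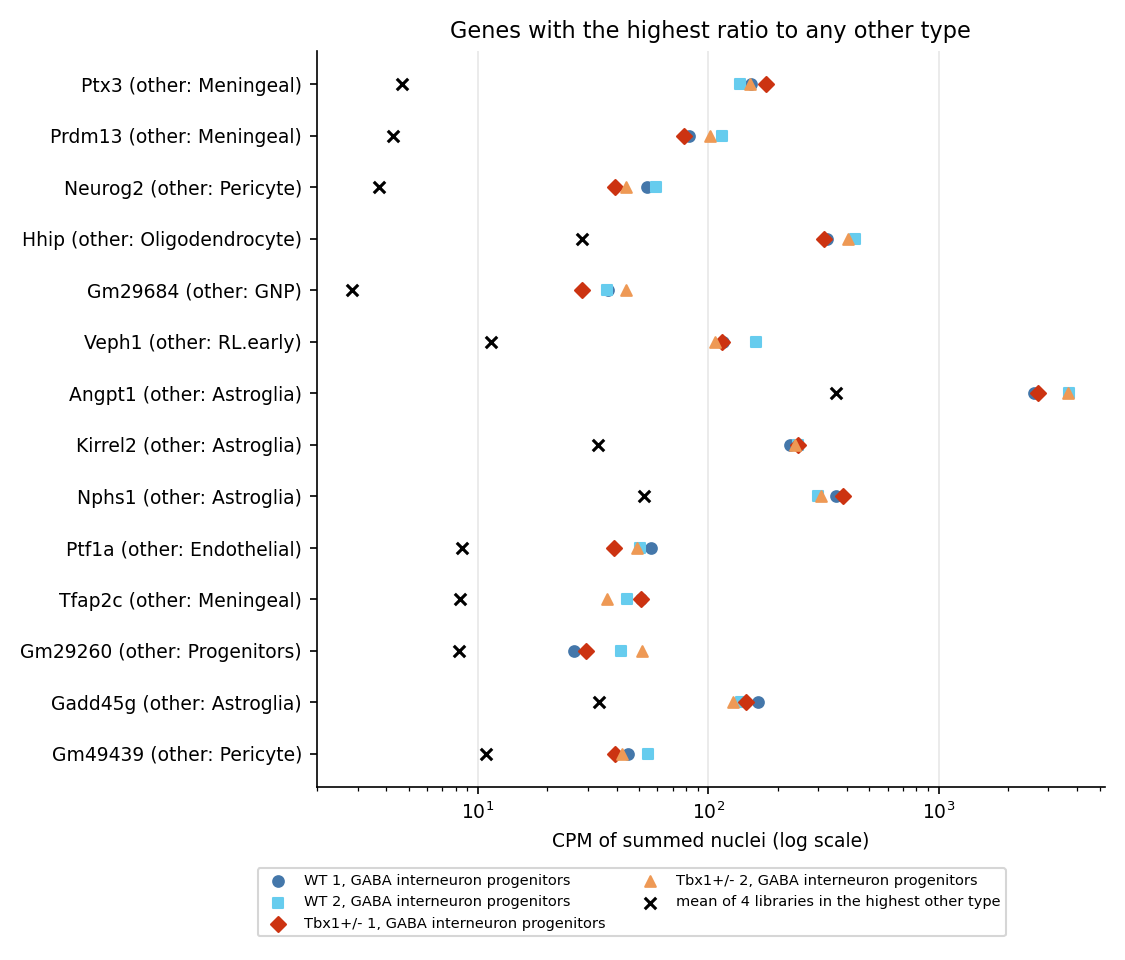
Genes with the highest ratio of their mean in the progenitors to that in any other type, with CPM of summed nuclei on a log axis; coloured points are the 4 libraries of progenitors and crosses the mean of the next type, which is named beside each gene. For every gene the 4 progenitor libraries lie to the right of the cross, from 33.2 times for Ptx3 downward.

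Kirrel2 and Prdm13 are known targets of Ptf1a in the nervous system, where Ptf1a acts with Rbpj on a paired site made of an E-box, CACCTG, and a TC-box, TTTCCCA. The 250 bases before the RefSeq start of these 2 genes are shown because the genes that lead the progenitors include both Ptf1a and its known targets. The sequences are RefSeq, build GRCm38.p6, written 5′ to 3′ on the gene's own strand, and capitals mark the 2 motifs on either strand (the complement of the TC-box reads TGGGAAA).
Kirrel2, chr7:30457516-30457765, minus strand: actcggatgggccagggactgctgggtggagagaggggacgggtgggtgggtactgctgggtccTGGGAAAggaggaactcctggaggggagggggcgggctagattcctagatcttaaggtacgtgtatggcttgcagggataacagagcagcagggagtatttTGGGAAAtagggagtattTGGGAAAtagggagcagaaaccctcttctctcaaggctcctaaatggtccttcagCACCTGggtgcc
Prdm13, chr4:21685964-21686213, minus strand: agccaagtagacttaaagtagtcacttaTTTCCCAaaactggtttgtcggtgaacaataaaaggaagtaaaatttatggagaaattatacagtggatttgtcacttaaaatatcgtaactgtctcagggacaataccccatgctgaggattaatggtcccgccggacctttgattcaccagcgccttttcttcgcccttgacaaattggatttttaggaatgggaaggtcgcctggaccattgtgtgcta
The RefSeq start of Kirrel2 is at position 30457515, and 175 bases of its window lie within the wider gene span of the GENCODE annotation given above. The Kirrel2 window holds 1 E-box, 6 bases before the start, and 3 TC-boxes, 179, 78 and 60 bases before it. The Prdm13 window holds 1 TC-box, 215 bases before the start. Of the 15 leading genes, 11 had a window; CACCTG was present in 1 of them and TTTCCCA in 2, against 19.4% and 7.77% of all 27025 genes with a window. These matches describe letters in the windows and nothing about binding.

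A list of 10 genes of GABAergic progenitors also held some better known from other lineages. Of the 10, 5 reached 20 CPM in the progenitors of every library and these 5 had their highest mean here. As that level was required in the progenitors themselves, such counts are a description here and for the lists that follow. Ptf1a was at 56.5 and 50.6 CPM in WT and 38.8 and 49.1 CPM in Tbx1+/- progenitors, and at 1.11 ± 0.381 CPM in differentiated GABA interneurons. Neurog2, a proneural bHLH gene better known from glutamatergic lineages, was at 49.2 ± 9.20 CPM. That is 13.3 times the next type, pericytes, but their 3.70 ± 7.40 CPM has an SD above its mean, so the ratio is loose. Differentiated GABA interneurons held 2.88 CPM. Prdm13 and Kirrel2 were also among them. Of the 5 genes under that level, Neurog1 (9.30 CPM) and Gsx1 (7.25 CPM) were also highest here, while Olig2 (3.98 CPM) was highest in oligodendrocytes, Skor2 (0.769 CPM) in Purkinje cells, of which it is an early factor, and Olig3, a rhombic lip factor, had 1 UMI in the 4 libraries.

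Factors of the next step, the interneuron precursor, were present as well. Of 11 genes, 6 reached 20 CPM in every library and 4 were highest in the progenitors, namely Tfap2b, Tfap2a, Lhx5 and the marker Pax3 described above. Tfap2b, an AP-2 factor of GABAergic interneurons, was at 630 and 919 CPM in WT and 699 and 828 CPM in Tbx1+/- progenitors, with differentiated GABA interneurons next (389 ± 34.4). Tfap2a was at 218 ± 29.4 CPM and the LIM-homeodomain gene Lhx5 at 97.4 ± 25.7 CPM, while Lhx1 (209 ± 21.0) was below GNP (291 ± 66.7). Gata3 and Dlx2 had no UMI, and the 3 counts that a count of 0 allows correspond to 0.456 CPM over the 6573708 UMIs of the 4 libraries. Genes of GABA and glycine handling were low in comparison with differentiated GABA interneurons. Gad1 was at 53.7 ± 4.54 against 807 ± 61.6 CPM, Gad2, the second GABA-making enzyme, at 26.6 ± 2.77 against 245 ± 33.9, and Slc6a5, the neuronal glycine transporter, at 26.8 ± 3.62 against 160 ± 11.2. Abat, which breaks GABA down, was the exception, at 153 ± 8.21 against 120 ± 6.37 CPM, and 1 of the 6 genes of this list that reached 20 CPM was highest here. Of 20 interneuron subtype genes, 7 reached 20 CPM and none of these was highest in the progenitors. Among them, Nxph1, a neurexin ligand, was at 38.2 ± 11.2 CPM against 2600 ± 615 in differentiated GABA interneurons, and Kit, the receptor of molecular layer interneurons, at 74.2 ± 8.43 against 591 ± 72.8. Of the 15 GABA-A receptor and chloride transporter genes, 7 reached 20 CPM and none of these was highest here.

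Stem cell and radial glia genes were present, several of them at levels between those of astroglia and differentiated interneurons. Of 18 genes, 13 reached 20 CPM in every library and 2 were highest in the progenitors, namely Msi1, an RNA-binding protein of neural stem cells (198 ± 16.6 CPM, with GNP next at 123 ± 5.85), and Prom1, which encodes prominin (67.7 ± 2.95). Slc1a3, the glial glutamate transporter GLAST, was at 741 ± 110 CPM against 2318 ± 316 in astroglia and 81.3 ± 12.5 in differentiated GABA interneurons. Tnc, the matrix protein tenascin C, was at 103 ± 17.3 CPM, far below the astroglial 2150 ± 348. Sox2 was at 47.1 ± 3.54 CPM, within the spread of astroglia (47.8 ± 5.70) and oligodendrocytes (50.4 ± 5.95). Slc1a2, the glutamate transporter GLT-1 and a member of the astroglial list, was higher in the progenitors (657 ± 44.6 CPM) than in astroglia (401 ± 18.7).

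Signalling genes showed both sides of the Notch exchange. Of 22 Notch genes, 12 reached 20 CPM and 2 were highest in the progenitors, the ligand Dll1 (47.6 ± 7.50 CPM) and Hes6, a bHLH factor that opposes Notch effectors (80.9 ± 9.75 CPM). The receptor Notch1 (69.0 ± 6.28 CPM) and the Notch effector Hes5 (65.9 ± 11.3 CPM) were below astroglia, at 123 ± 14.0 and 154 ± 24.5. Of 12 Hedgehog genes, 8 reached 20 CPM and 2, both inhibitors, were highest here. Hhip, a membrane protein that binds and sequesters hedgehog ligands, was at 328 and 432 CPM in WT and 317 and 406 CPM in Tbx1+/- progenitors, 13.1 times the next type. Sufu, which holds Gli factors in check, was at 230, 315, 226 and 243 CPM in WT 1, WT 2, Tbx1+/- 1 and Tbx1+/- 2, against 96.3 ± 5.59 in GNP. The receptor Ptch1 and the activator Gli2 were at 191 ± 15.4 and 239 ± 25.6 CPM, below the 326 ± 28.3 and 535 ± 36.0 of GNP, which divide in response to this ligand. Gli1, a target of the pathway, was at 15.2 ± 1.89 against 42.0 ± 3.00 CPM in GNP, and Shh itself was at 0.560 CPM.

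Of 28 migration and guidance genes, 22 reached 20 CPM and 2 were highest in the progenitors. Dcc, the netrin receptor, took 15313 and 24420 CPM in WT and 17887 and 23050 CPM in Tbx1+/- progenitors, with GNP next at 14728 ± 2574. Both libraries numbered 2 were again the higher ones, and the genotypes overlapped. Plxna2, a semaphorin receptor, was at 485 ± 46.7 CPM, above differentiated granule neurons at 314 ± 26.9. Unc5c, the netrin receptor for repulsion, had the opposite pattern, at 2095 ± 143 CPM in progenitors and 10342 ± 1522 in differentiated GABA interneurons. Of 12 genes listed under cell cycle exit, 8 reached 20 CPM and 2 had their highest mean here. One, the antiproliferative Btg2, was at 163 ± 19.6 CPM. The other, Ccnd2, is a D-type cyclin that drives the cell cycle rather than exit, and its 585 ± 32.5 CPM overlapped GNP (514 ± 62.0) within the SD of both. Among 27 apoptosis genes, 12 reached 20 CPM and none of these was highest here.

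Marker lists of 10 other cell types gave the following sums in the progenitors, as a range over the 4 libraries. Astroglial genes summed to 1466 to 1677 CPM, against a mean of 3884 in astroglia, and Purkinje genes to 2699 to 2919 CPM, against 17686 in Purkinje cells. Most of the Purkinje sum was Rora (1869 ± 171 CPM), a nuclear receptor that differentiated GABA interneurons also express (5141 ± 548). Granule lineage genes summed to 615 to 865 CPM against 1520 in GNP. The oligodendrocyte, microglia, pericyte, meningeal and endothelial lists summed to between 22.4 and 137 CPM, against 2818 to 5230 in their own types. Erythroid genes summed to 222 to 327 CPM against 5367 in endothelial cells, and the choroid plexus list to 61.3, 69.6, 99.3 and 272 CPM in WT 1, WT 2, Tbx1+/- 1 and Tbx1+/- 2.

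Genes of S phase and of G2/M were abundant, second in sum to those in GNP. The 43 S phase genes summed to 2764, 2931, 3085 and 2883 CPM in WT 1, WT 2, Tbx1+/- 1 and Tbx1+/- 2 (GNP mean 4053). Of them, 33 reached 20 CPM in every library and none of these was highest in the progenitors. The 54 G2/M genes summed to 5827, 5229, 5638 and 4779 CPM (GNP mean 7610). Of them, 48 reached 20 CPM in every library and 1 of these, Cbx5, a heterochromatin protein, was highest here. Top2a, the topoisomerase of dividing cells, was at 476 ± 84.1 CPM in progenitors, 728 ± 94.5 in GNP and 78.6 ± 34.3 in differentiated GABA interneurons. In nuclei thinned to 1500 UMIs, 98.5% and 96.2% of WT and 97.8% and 96.4% of Tbx1+/- progenitors had at least 2 UMIs of these 97 genes. That cut also took in 64.0% to 78.6% of Purkinje nuclei, which do not divide, so it separates types poorly. With at least 10 UMIs, a cut chosen after seeing the data, the shares were 56.5% and 55.6% in WT and 58.4% and 51.8% in Tbx1+/-. The same cut took in 76.0% to 83.6% of GNP, 15.3% to 19.7% of astroglia, 2.67% to 8.53% of differentiated GABA interneurons and 0% to 5.02% of Purkinje nuclei. Without thinning, the progenitor shares at 10 UMIs were 80.4%, 75.3%, 76.6% and 71.6%, and 25 nuclei with fewer than 1500 UMIs entered only that count. That unthinned cut also took in 50.8% to 72.9% of Purkinje nuclei, a range that overlaps the progenitors, so no difference is read from it. Free RNA in the droplets adds to such counts in every type, and its part was not tested.

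**Figure D3:**
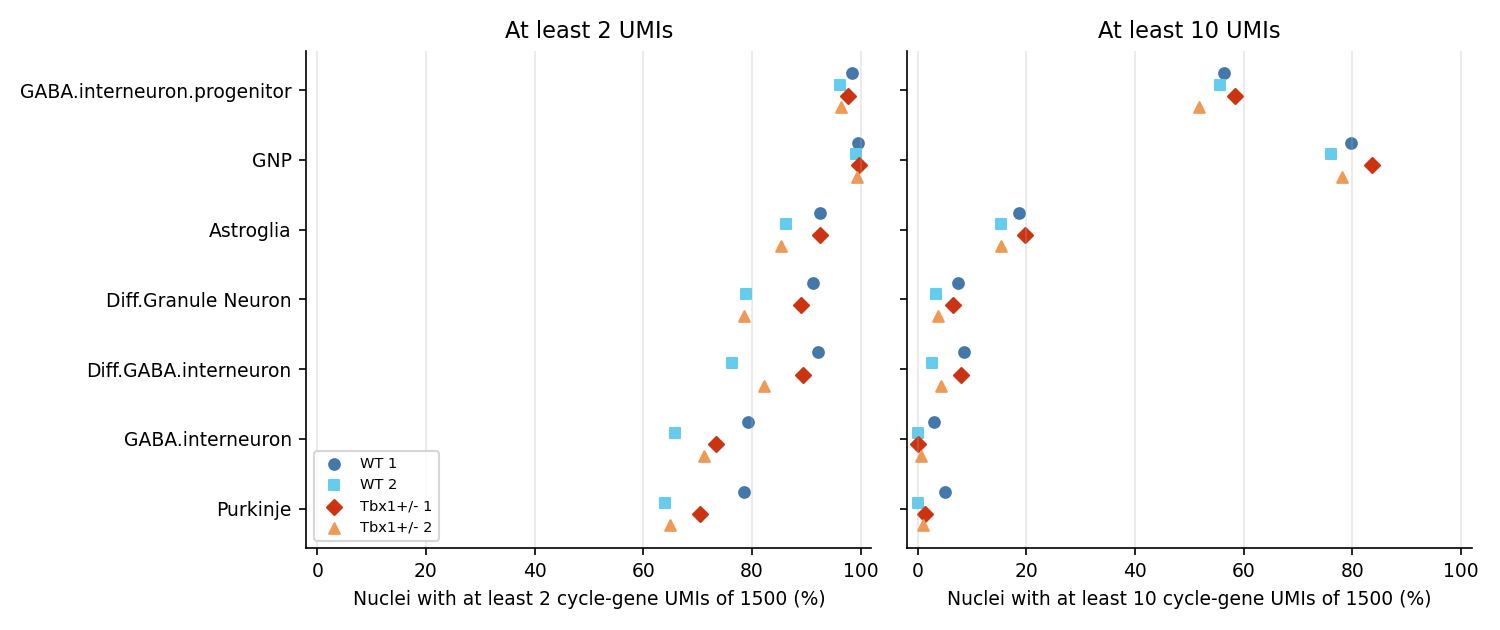
Share of nuclei with at least 2 (left) and at least 10 (right) UMIs of 97 S phase and G2/M genes after thinning to 1500 UMIs, in percent, for 7 annotated types; each point is a library. At 2 UMIs all types crowd the upper end, while at 10 UMIs the progenitors lie between 51.8% and 58.4%, below GNP (76.0% to 83.6%) and above astroglia (15.3% to 19.7%).

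The progenitors were not uniform. The 2024 nuclei that could be thinned were divided by k-means into 3 groups over 10 principal components, a description with no test, since the genes that differ made the groups. Group 1 held 51.3% of the nuclei (1039), group 2 40.5% (820) and group 3 8.15% (165). Group 1 took 50.1%, 55.3%, 50.9% and 50.4% of the nuclei of WT 1, WT 2, Tbx1+/- 1 and Tbx1+/- 2, and group 2 took 38.4%, 40.8%, 39.9% and 43.5%. The mean of each library was removed from every gene before the grouping, which draws the shares of the libraries together. The like shares of the 2 larger groups are therefore not read as a result about libraries or genotypes. The border between them depended on the number of groups. With 4 groups, 316 nuclei of group 1 and 372 of group 2 came to share a group, 723 of group 1 and 447 of group 2 stayed apart, and group 3 kept 164 of its 165 nuclei.

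Group 1 carried the genes of interneuron precursors and group 2 those of ventricular zone progenitors and glia. Pax2 was at 306, 419, 331 and 386 CPM in group 1 and at 16.3, 1.97, 1.54 and 6.59 CPM in group 2 of the same libraries. Lhx5 (186 ± 41.1 against 12.1 ± 2.06), Tfap2a (383 ± 39.4 against 62.5 ± 12.6), Lhx1 (343 ± 40.9 against 83.9 ± 14.4) and Gad1 (89.7 ± 13.9 against 14.3 ± 11.3) followed the same pattern. So did Dcx, the microtubule protein of migrating neuroblasts (262 ± 39.7 against 43.6 ± 3.93), and the synaptic adhesion gene Nrxn3 (10063 ± 1609 against 1348 ± 219). In the other direction, Ptf1a was at 29.7, 19.7, 16.6 and 28.2 CPM in group 1 and at 101, 90.4, 75.3 and 79.1 CPM in group 2. Slc1a3 (283 ± 37.4 against 1355 ± 144), Tnc (19.1 ± 6.50 against 219 ± 46.5), Hes5 (25.8 ± 5.94 against 117 ± 22.1), Notch1 (33.9 ± 3.16 against 121 ± 12.2) and Id1, an inhibitor of bHLH factors (41.8 ± 6.75 against 188 ± 20.8), were higher in group 2. Cyp26b1, which degrades retinoic acid, was at 25.96 ± 8.04 in group 1 and 551 ± 35.8 in group 2. Kirrel2 (142 ± 2.71 against 385 ± 14.9) and Nphs1 (117 ± 25.9 against 632 ± 94.3) sided with Ptf1a. Other genes that lead the type differed less between the groups. Neurog2 was at 49.1 ± 11.6 and 50.5 ± 12.2 CPM and Prdm13 at 111 ± 22.2 and 86.8 ± 11.9 CPM in groups 1 and 2, with overlapping libraries. Pax3 was at 1158 ± 124 and 1633 ± 290 CPM, with each library of group 2 above each of group 1.

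**Figure D4:**
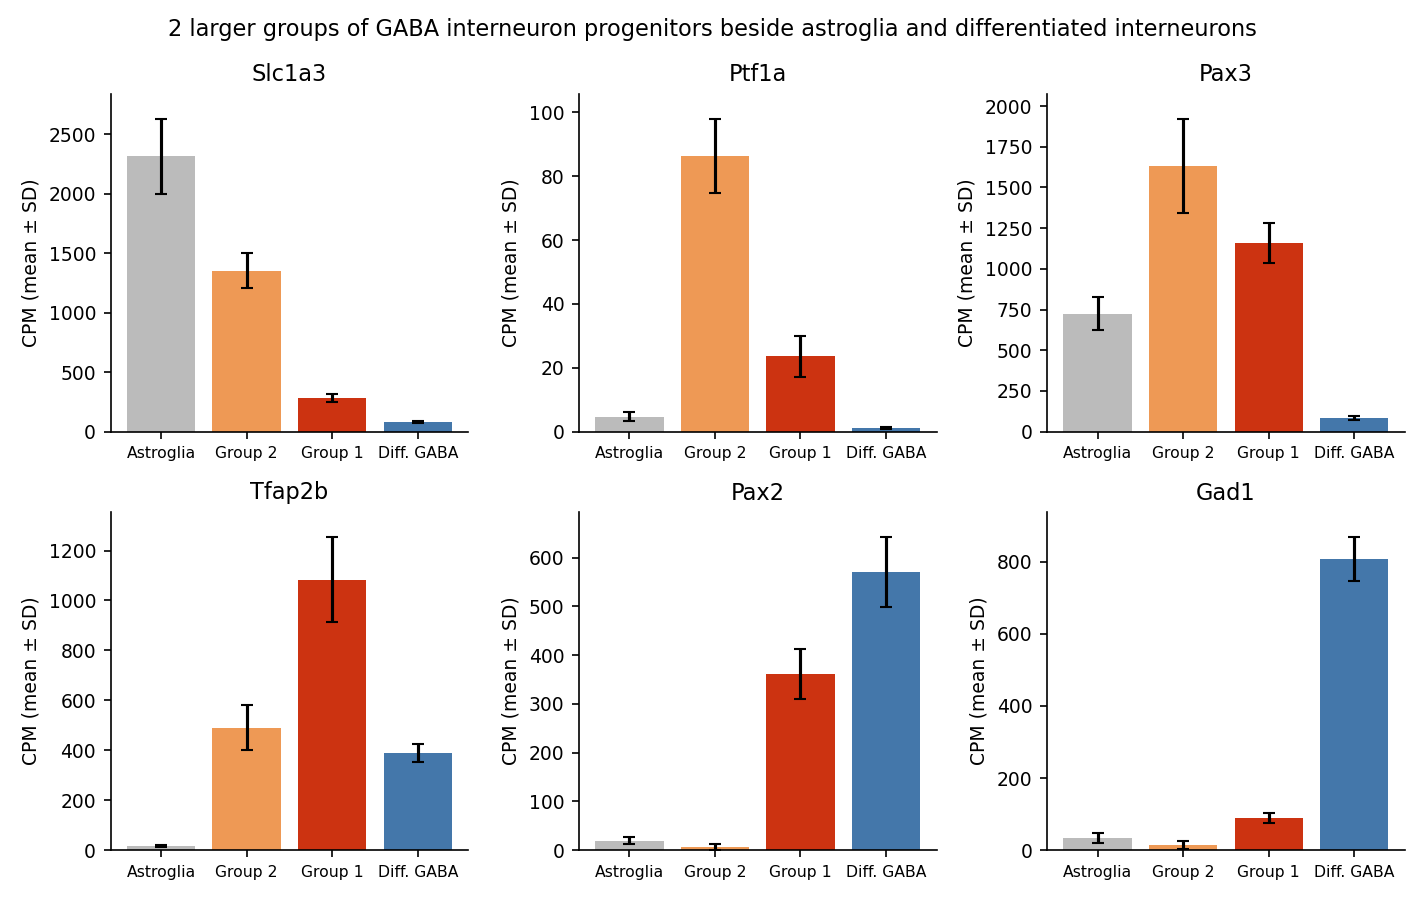
Slc1a3, Ptf1a, Pax3, Tfap2b, Pax2 and Gad1 in astroglia, progenitor groups 2 and 1, and differentiated GABA interneurons, as CPM of summed nuclei on linear axes from 0; bars are means of 4 libraries and lines are SD. Slc1a3 steps down from 2318 CPM in astroglia to 1355 in group 2 and 283 in group 1, Pax2 is at 6.61 CPM in group 2 and 361 in group 1, and Ptf1a is highest in group 2 at 86.4 CPM.

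The group with Pax2 also had the higher share of nuclei with at least 10 cell cycle UMIs. The shares were 70.4%, 63.9%, 72.4% and 62.7% in group 1 and 46.6%, 47.7%, 49.8% and 41.9% in group 2 of WT 1, WT 2, Tbx1+/- 1 and Tbx1+/- 2, so the groups did not overlap. Top2a was at 600 ± 140 against 414 ± 93.6 CPM and Ccnd2 at 832 ± 37.4 against 387 ± 44.97 CPM in groups 1 and 2. Cell cycle genes were not kept out of the genes that made the groups, so these differences are a description only. Divided by detection of Pax2 instead, the shares lay closer together. They were 58.8%, 59.7%, 70.7% and 63.9% with Pax2 and 56.0%, 54.6%, 56.4% and 49.4% without it, in the same order of libraries.

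Group 3 differed from both in depth and content. Its nuclei had median UMIs from 4263 to 6085, against 2336 to 3131 in groups 1 and 2. It took 11.5% and 3.84% of the WT and 9.25% and 6.07% of the Tbx1+/- progenitors, and WT 2 contributed 14 nuclei. Granule lineage genes summed to 1051 CPM in this group, against 671 and 672 CPM in groups 1 and 2, and interneuron subtype genes to 2486 CPM, against 819 and 871 CPM. These are not the only lists whose sum was higher in group 3. Galntl6, a glycosyltransferase gene, was 1 of only 2 of its 15 leading genes with the highest level in differentiated granule neurons. The rest of the 15 were highest in other types. Its share of nuclei that hold RNA of a second nucleus was not tested, and the authors' methods describe no removal of doublets.

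Whether loss of 1 Tbx1 copy changes the progenitors is the question of the genotype comparison. Tbx1 itself gave 0 and 1 UMIs in the WT and 0 and 2 UMIs in the Tbx1+/- progenitors, 3 of 6573708 in all, so the genotype labels could not be checked at this depth. The share of progenitors among annotated nuclei overlapped between genotypes, with a log2 difference (Tbx1+/- minus WT) of -0.11 (SE 0.20, adjusted p = 0.976, edgeR quasi-likelihood test over 16 types). None of the 16 types passed an adjusted p of 0.1 in that test (0%). Without Tbx1+/- 2, 3 of the 16 types passed, and the progenitors were not among them (adjusted p = 0.897 in edgeR). The number of progenitors per differentiated GABA interneuron was 0.647 and 0.548 in WT and 0.631 and 0.463 in Tbx1+/-. These ratios overlapped, with a log2 difference of -0.14 and a two-sided exact permutation p = 0.667, where 0.33 is the smallest p that 2 against 2 allows. The share with at least 2 cell cycle UMIs, which was near its ceiling in every library, differed by -0.24 percentage points (exact permutation p = 1.0). At 10 UMIs the difference was -0.93 percentage points, with 1.94 and -3.79 in the same-numbered pairs (exact permutation p = 1.0).

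No gene of 12363 tested passed an adjusted p of 0.05 with a change over 1.5-fold between genotypes in the progenitors (0% called, edgeR quasi-likelihood test with no block). The study prepared its nuclei in 2 separate experiments, each with pools of both genotypes, but the labels do not say that the replicate number marks the experiment. With the number as a block, 1 gene was called (0.00809%), Ttr (log2 difference 1.42, adjusted p = 0.0143 in edgeR). At an unadjusted p under 0.05 there were 190 genes (1.54%) with no block, 93 higher (0.752%) and 97 lower (0.785%) in Tbx1+/-. The smallest adjusted p with no block was 0.9997, and DESeq2 also called 0 genes, with 14 of 21873 tested at an unadjusted p under 0.05. Without any difference, a calibrated test puts a share of 0.05 of the genes under that cut. Both fits were thus conservative, and their 0 calls do not show that the genotypes are equal. The fit with no block counts differences between replicate numbers as spread within a genotype. With the block, 519 of the 12363 genes had an unadjusted p under 0.05, which is also below a share of 0.05. The defining genes below lay within 2 SE of 0, except Neurog2. Pax3 had a log2 difference of 0.03 (SE 0.26), Pax2 of -0.14 (SE 0.22), Ptf1a of -0.29 (SE 0.21) and Kirrel2 of 0.04 (SE 0.19). Neurog2 was at 54.4 and 59.3 CPM in WT and 39.4 and 43.9 CPM in Tbx1+/- progenitors, with a log2 difference of -0.44 (SE 0.20, unadjusted p = 0.0549 in edgeR). These values do not overlap, but 2 against 2 libraries often separate without a difference. The share of all tested genes that separate in this way was not counted. Across the 13 pathway lists, 0 genes were called, and 2 had an unadjusted p under 0.05 in edgeR. That is a smaller share of the list genes tested than the 1.54% of all genes, so nothing is read from it. The 2 were the homeobox gene Meis2 (log2 difference 0.93, SE 0.39) and the chloride importer gene Slc12a2 (0.53, SE 0.21), both higher in Tbx1+/-. Of the S phase genes, 31 of 43 (72.1%) were above 0 and of the G2/M genes 40 of 54 (74.1%) below 0, against 48.4% above and 51.6% below 0 among all genes tested. The medians were 0.08 and -0.11 against -0.01 for all genes, no gene of either list had an unadjusted p under 0.05, and the genotypes overlapped in both sums.

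**Figure D5:**
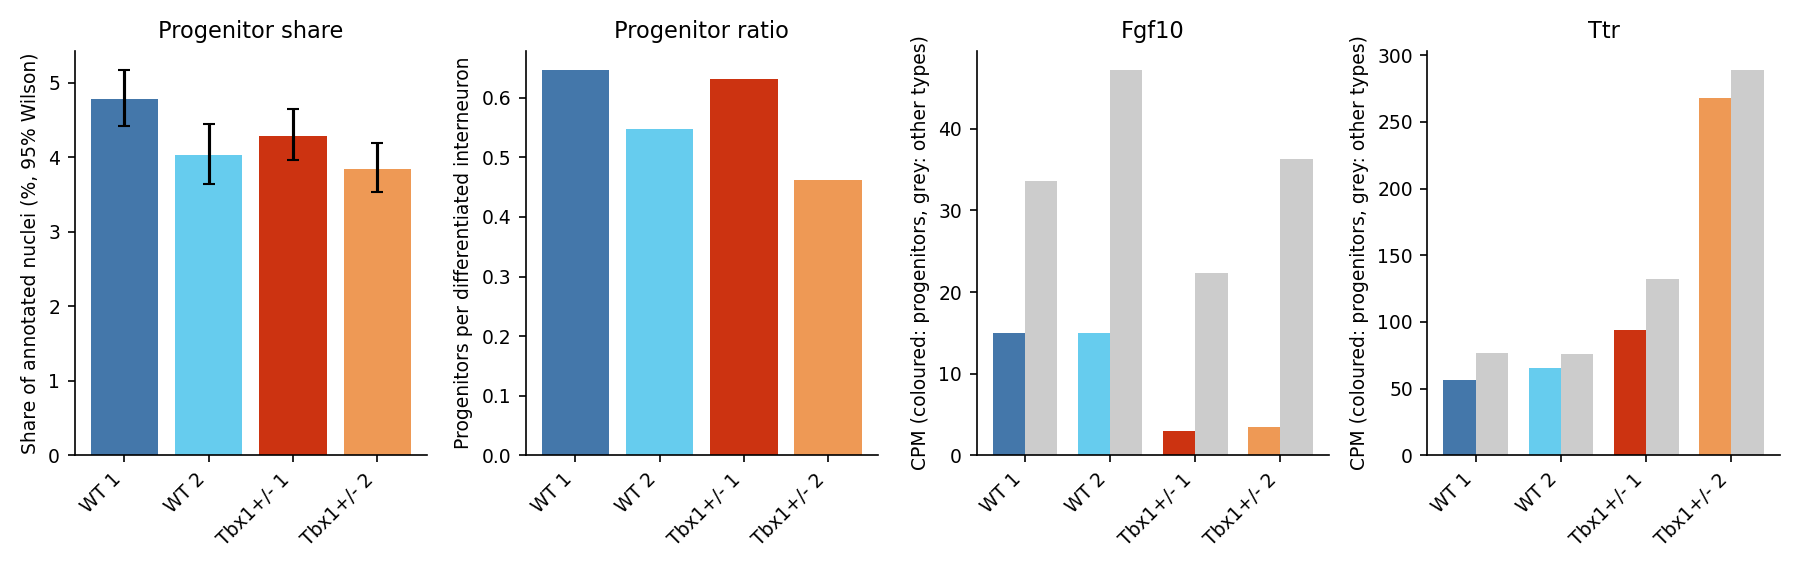
Progenitors in the 4 libraries: their share of annotated nuclei in percent with 95% Wilson intervals, their number per differentiated GABA interneuron, and Fgf10 and Ttr in CPM in progenitors (coloured) and all other annotated nuclei (grey), on axes from 0. The genotypes overlap in share and ratio; Fgf10 is at 14.9 and 15.0 CPM in WT and 2.94 and 3.46 CPM in Tbx1+/- progenitors, and Ttr is at higher values in both Tbx1+/- libraries in progenitors and in the other nuclei.

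The 10 genes with the smallest unadjusted p, among those with the same sign in each same-numbered pair of libraries, were 5 higher and 5 lower in Tbx1+/-, and none passed the test over the 4 libraries with no block. Fgf10, a fibroblast growth factor, came first, with 28 and 19 UMIs (14.9 and 15.0 CPM) in WT and 5 and 6 UMIs (2.94 and 3.46 CPM) in Tbx1+/- progenitors. The log2 difference was -2.19 (SE 0.41, unadjusted p = 0.000444, adjusted p = 0.9997 in edgeR). Most of these UMIs lay in the small group 3, which held 20 and 16 of them in WT and 4 and 3 in Tbx1+/-. Without group 3, 8 and 3 UMIs remained in WT and 1 and 3 in Tbx1+/-, under the filter on low counts, so the difference could not be tested there. In the rest of the annotated nuclei Fgf10 was at 33.6 and 47.2 CPM in WT and 22.3 and 36.3 CPM in Tbx1+/-, values that overlap between genotypes but were lower in Tbx1+/- in each same-numbered pair. Ttr, the thyroid hormone carrier made in the choroid plexus, was at 56.5 and 65.7 CPM in WT and 94.1 and 268 CPM in Tbx1+/- progenitors (log2 difference 1.58, SE 0.42, adjusted p = 0.9997 in edgeR). The difference ranged from 0.62 without Tbx1+/- 2 to 2.14 without Tbx1+/- 1. Ttr was also higher in both Tbx1+/- libraries outside the progenitors, at 76.4 and 75.7 CPM in WT and 132 and 289 CPM in Tbx1+/- for all other annotated nuclei, and at 47.1, 42.7, 73.1 and 200 CPM in differentiated GABA interneurons. The part of free RNA in it was not tested. The other 8 genes included Atp13a4, Arap2 and Gm30524 on the higher side and Dnajb1, Gm43915, 4930557F10Rik and Irgq on the lower, with log2 differences from -2.06 to 1.46 and 4 to 61 UMIs per library. Dnajb1, a heat shock co-chaperone, had 16 and 15 UMIs in WT and 4 and 4 in Tbx1+/-.

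The count of called genes depended on the WT libraries. Without WT 1, 21 genes (0.163% of those tested) were called, 18 of them higher in Tbx1+/-, including Ptgds, a prostaglandin synthase of the meninges (log2 difference 4.51), Ttr, Slit3 and Arpp21. Slit3 and Arpp21 are among 4 of these genes (19.0%) that also belong to the 15 leading genes of group 3 (26.7% of them), and group 3 took 3.84% of the progenitors of WT 2, the WT library left in that fit, against 11.5% in WT 1. The part of that share in these calls was not tested. Also among the genes higher in Tbx1+/- in that fit were the ribosomal genes Rps29 and Rpl39. Atp5e, Atp5k and mt-Nd3, genes of mitochondrial energy production, were higher as well. Their log2 differences reached 1.28 (Rps29). WT 2 had a median mitochondrial share of 0.442%, against 0.899% and 0.648% in the Tbx1+/- libraries. Whether this difference between libraries has a part in the calls was not tested. Without WT 2, 3 genes (0.023%) were called, of which Ttr was the only one higher in Tbx1+/-, and without either Tbx1+/- library 0 genes were called. The lone library of a genotype is assumed in these fits to vary like the other genotype.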

How the data were processed

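The study profiled PF/F of 2 WT and 2 Tbx1+/- pools by droplet single-nucleus RNA-seq. The authors aligned reads to mm10 with Cell Ranger 7.0.0, introns included, and deposited raw UMI counts per gene and nucleus, which were used here. The authors' deposited annotation gave cell types and expected counts per nucleus, that is, UMI totals after ambient RNA correction with SoupX; these estimated counts served to give the share of UMIs kept. The labels of the annotation came from the authors' clustering. Bone samples of the series were not used. The members, gene lists and tests were chosen with earlier results of these data known.

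Counts were summed over the progenitors of each library and given as CPM of 1000000. Genes were tested with edgeR 4.0.16 (TMM, filterByExpr, quasi-likelihood, Benjamini-Hochberg, adjusted p under 0.05 and over 1.5-fold, no covariate), with DESeq2 1.42.0 as an alternative, in R 4.3.3. Shares were tested by edgeR quasi-likelihood on nuclei per type over the 16 types, with the annotated nuclei as library size. That test used no TMM factors, no filter, no dispersion trend and no fold threshold, at an adjusted p under 0.1. Single values were compared by exact permutation. Nuclei were thinned to 1500 UMIs with a fixed seed. For k-means, 1500 variable genes were used after the mean of each library was removed from each gene (scikit-learn 1.9.0). The scripts were tested on simulated counts. The intervals are 95% Wilson intervals. Gene coordinates are GENCODE for GRCm38 (mm10), matched for 99.6% of 32285 features.

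Named genes were Pax3, Pax2, Tbx1, members of the lists with 20 CPM or the largest difference from other types, the 15 genes with the highest ratio to any other type, and the 10 with the smallest p between genotypes with the same sign in each same-numbered pair. A few genes of the k-means groups and of the fits without 1 library were named after their values were seen. Alternatives were DESeq2's size factors, no filter on low counts, the replicate block, nuclei with at least 2000 genes, no nuclei among the 8% with the most UMIs, each library left out, other thinning and cell cycle thresholds, and, added after seeing the data, no nuclei of group 3. Results for some named genes and cell types are not reported here.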

Additional observations from a re-analysis of the deposited data

How the results depend on the processing

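The share of progenitors among annotated nuclei kept its sign and its side of the threshold under 9 alternatives and turned to 0.014 (log2) without WT 1, over a range of -0.23 to 0.014 when each library was left out. The ratio to differentiated GABA interneurons turned to 0.084 without Tbx1+/- 2 (range -0.36 to 0.084). The difference in the cell cycle share (at least 2 UMIs) turned to 0.67 percentage points with at least 3 UMIs, to 0.071 after thinning to 1000 UMIs, to 0.90 without WT 1 and to 0.47 without Tbx1+/- 2 (range -1.39 to 0.90). The count of called genes stayed at 0 under 8 alternatives, DESeq2 and the fit without group 3 included, and ranged from 0 to 21 when each library was left out. The causes of these changes were not tested. The fitted log2 changes of the 10 genes named for the genotypes kept their direction and their side of the threshold in 104 combinations of a gene and an alternative, and Ttr passed the threshold in 3. These 10 genes were picked from the same counts for their sign in each same-numbered pair, and with no block they lay far from the threshold. The kept direction and side were thus largely set by that choice and are no further support. Fgf10 fell under the filter on low counts without the nuclei of group 3, as did Dnajb1 and 4930557F10Rik in nuclei with at least 2000 genes, so they have no value there. Levels of the named genes moved by over 1 SD in 7 comparisons with an alternative and by less in 27.

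The study prepared nuclei in 2 separate experiments with both genotypes in each, and the labels give replicate numbers without saying that a number marks the experiment. Deviations of same-numbered libraries from their genotype means correlated with r = 0.314 over 12363 genes, a value that is the same for both pairs by construction with 2 libraries per genotype. With the replicate block, 1 gene was called, Ttr (log2 difference 1.42, adjusted p = 0.0143 in edgeR). In that fit 519 of the 12363 genes had an unadjusted p under 0.05, which is below a share of 0.05. The paired share difference was -0.11, the paired ratio difference -0.14 (-0.04 and -0.25 in the 2 pairs) and the paired cell cycle difference -0.24 percentage points.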
